A study of Homo sapiens with 24 samples.

Results

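This comparison set the 6 libraries of sensory neuron cultures treated with TGF-β against the 6 libraries treated with IL-6, each pair from the same batch of differentiation (batches 1 to 6). These 12 of the 24 libraries of the series were chosen by the treatment and batch given in the labels. The cultures came from wild-type H9WAO9 (H9) cells, 1 established line of human embryonic stem cells, which were taken through vagal neural crest to sensory neurons and then matured. TGF-β was given at 2 ng/ml for 5 days. The dose and exposure of IL-6 are not given in the sources used here. Each batch also had a vehicle library (bovine serum albumin in PBS) and an IL-4 + IL-13 library (10 and 3 ng/ml, 5 days). The vehicle libraries enter below only as side values. All libraries were made from whole cultures, in which neurons were a minority of the cells, so that each value is that of a mixed culture.

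TGF-β signals through the receptor kinases TGFBR1 and TGFBR2, which phosphorylate SMAD2 and SMAD3. With SMAD4, these switch on inhibitors of the same pathway, such as SMAD7, SKIL and PMEPA1, and in mesenchymal cells the genes of matrix proteins, integrins and contractile fibres. IL-6 binds IL6R, and the complex signals through IL6ST (gp130), the JAK kinases and STAT3, with SOCS3 as the feedback inhibitor. IL-6 libraries therefore offer a second reference for the TGF-β response, one that does not rest on the vehicle libraries.

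Between 33342682 and 39284289 reads were counted per TGF-β library and between 33529302 and 37983192 per IL-6 library, so that depth was alike in both groups. The pan-neuronal genes TUBB3 and UCHL1 were expressed in all 12 libraries, with TUBB3 at 8793 to 39743 counts under TGF-β and 13145 to 40784 under IL-6. The capsaicin receptor gene TRPV1 had 290 to 526 counts under TGF-β and 283 to 456 under IL-6. SOX10, which defines Schwann cells and their precursors, stood at only 4 to 25 counts per library. Libraries that share a batch label resembled each other. The correlation of their deviations from the group mean, over 20887 genes, was 0.744, 0.737, 0.621, 0.484, 0.340 and 0.532 for batches 1 to 6, with a median of -0.162 between different batches. The highest between batches, 0.540 for batches 3 and 4, was above the value of batch 4 itself. The TGF-β library of batch 2 did not resemble the vehicle library of batch 2 (r = -0.0072), nor did its IL-6 library (r = 0.00055). In batch 4 the r with vehicle was 0.102 for TGF-β and 0.394 for IL-6. Both were below the highest r with another batch, 0.577 and 0.461.

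TGF-β cultures had more genes higher than lower against IL-6 cultures by edgeR's test. Of 27606 genes tested, 104 passed an adjusted p of 0.05, 88 of them higher (0.319%) and 16 lower (0.058%) under TGF-β. A further threshold of 1 on the log2 scale, a 2-fold change, was met by 28 genes that were higher (0.101%) and 1 that was lower (0.00362%). Every one of the 104 genes moved the same way in 6 of 6 batches. With DESeq2 the split was more even, with 51 genes higher and 53 lower past the 2-fold threshold and 496 and 383 passing. At an unadjusted p under 0.05 in edgeR the directions were more even too, with 1500 genes higher and 1717 lower, and the median log2 fold change of all genes tested was -0.0065. Of the 104 genes, 93 have a named symbol and 11 are loci without a name, all of these higher. The number of genes that passed moved with the batches in the fit, from 27 without batch 4 to 266 without batch 1, with 34, 36, 99 and 66 without batches 2, 3, 5 and 6. Of the 104, 24 passed whichever batch was left out, 23 of them higher and 1 lower.

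**Figure D1:**
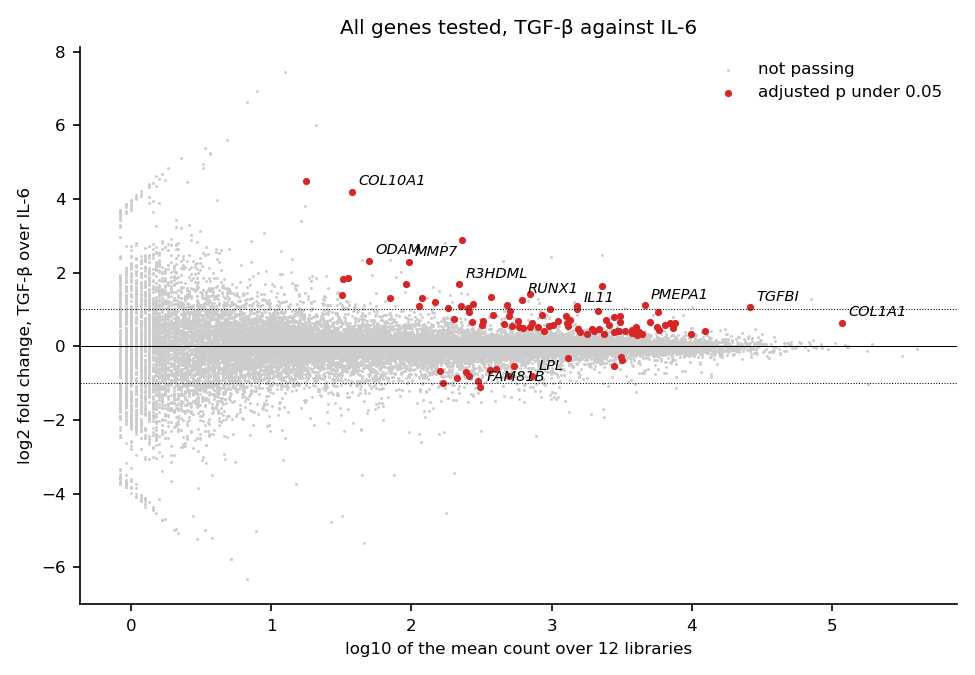
Log2 fold change of TGF-β over IL-6 (vertical axis) against the log10 of the mean count over 12 libraries (horizontal axis) for 27606 genes. Red points are the 104 genes that passed an adjusted p of 0.05, and dotted lines mark a log2 fold change of 1 in either direction. Most red points lie above 0.

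The smallest adjusted p-values belonged to PMEPA1 and IL11, both feedback or direct target genes of TGF-β. PMEPA1 on chromosome 20 of GRCh38.p14 (57648396 to 57711472), which encodes a membrane protein that holds back SMAD signalling, had a log2(normalized count + 1) of 10.77 at the lowest, 11.69 at the median and 11.93 at the highest in the IL-6 libraries, and of 11.72, 12.85 and 13.17 in the TGF-β libraries. The groups overlapped, yet within each batch the TGF-β library was higher by 0.91 to 1.33. The fitted log2 fold change was 1.12 (SE 0.064, adjusted p = 0.000294). IL11 on chromosome 19 (55364382 to 55370463), a cytokine of the IL-6 family known as a target of SMAD proteins, ran from 8.96 through 9.85 to 11.18 under IL-6 and from 9.97 through 11.00 to 11.99 under TGF-β, with within-batch differences of 0.81 to 1.32. Its log2 fold change was 1.02 (SE 0.064, adjusted p = 0.000353). TGFBI, a secreted matrix protein named for its induction by TGF-β, was higher by 1.07 (SE 0.11, adjusted p = 0.00367) and HMGA2, an architectural chromatin protein, by 0.80 (SE 0.085, adjusted p = 0.00588). These 4 genes passed whichever batch was left out.

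**Figure D2:**
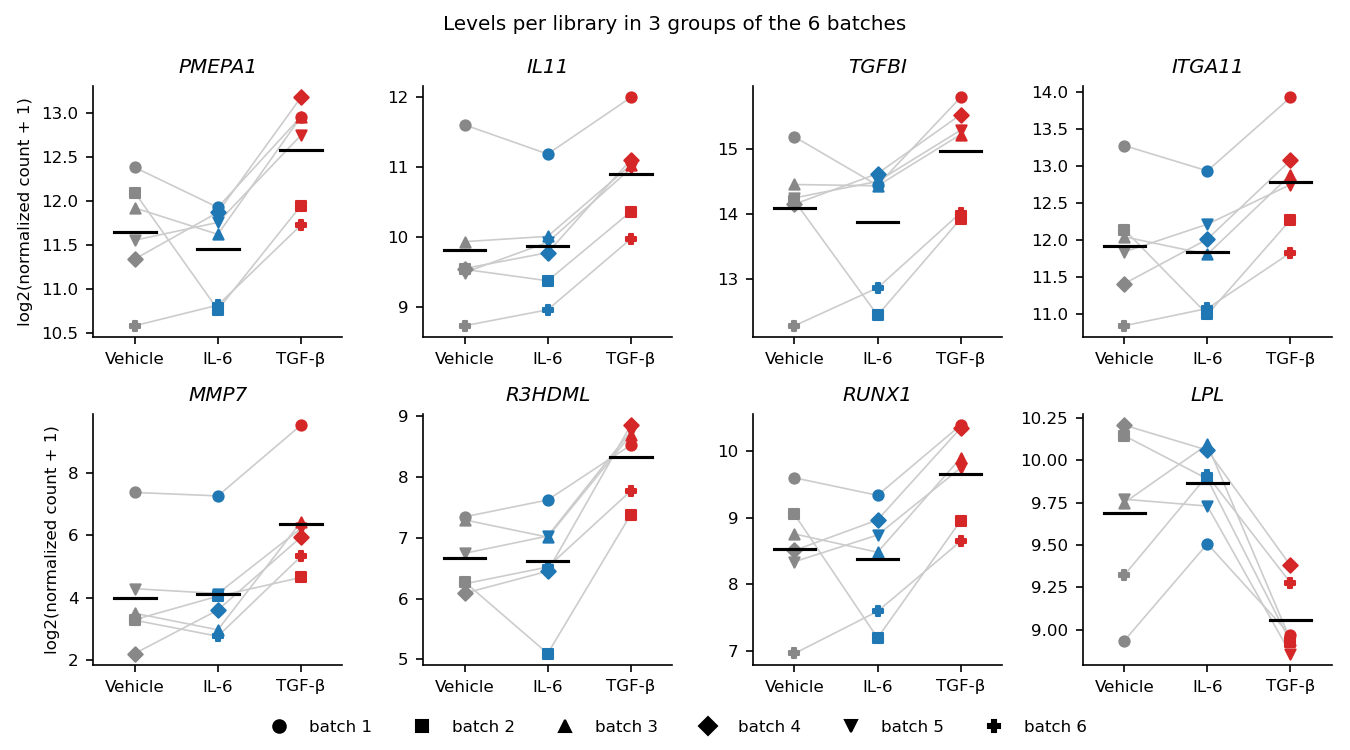
Log2(normalized count + 1) of 8 genes in the vehicle, IL-6 and TGF-β libraries, 1 marker shape per batch, with grey lines joining the libraries of a batch and black bars at the mean of 6. In each batch the TGF-β library lies above the IL-6 library for 7 of the genes and below it for LPL.

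Among 40 SMAD feedback and direct target genes, 7 rose and none fell, with a median log2 fold change of 0.28 against -0.0061 over all 26024 symbols tested. In 19 of the 40 the TGF-β library was higher in 6 of 6 batches, and in none was it lower in all 6. Over all 26024 symbols, 88 rose and 16 fell, and 1033 were higher and 1003 lower in 6 of 6 batches. At an unadjusted p under 0.05 in edgeR, 1450 of them were higher and 1667 lower. These counts over all symbols are the ones to set beside each list below. Beside the 4 genes above, ADAM12 and ADAM19, which encode membrane metalloproteases, were higher by 0.67 (SE 0.089, adjusted p = 0.0188) and 0.52 (SE 0.079, adjusted p = 0.0315), and TGFB1, the ligand gene itself, by 0.68 (SE 0.11, adjusted p = 0.0406). ADAM12, ADAM19 and TGFB1 did not pass without batch 2, 3 or 4, with adjusted p of up to 0.0859, 0.132 and 0.180. ADAM19 and TGFB1 did not pass without batch 6 either. Some of the best known feedback genes did not pass. SMAD7 had a log2 fold change of 0.34 (SE 0.059, adjusted p = 0.0505) and SKIL one of 0.31 (SE 0.067, adjusted p = 0.0939), each with higher values in 6 of 6 batches.

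The promoters of a few of the genes that rose are shown because matches to SMAD or AP-1 motifs can be read in them. The windows hold the 250 bases before the start of transcription, 5′ to 3′ on the strand of the gene, from RefSeq's table for GRCh38.p14. IL11 is at chr19:55370464-55370713 (minus strand), MMP7 at chr11:102530748-102530997 (minus strand) and R3HDML at chr20:44336793-44337042 (plus strand). Capitals mark matches to the SMAD box CAGAC (or GTCTG on the other strand), the AP-1 site TGANTCA and the palindromic SMAD element GTCTAGAC. None of these matches overlap in the windows shown. Matches to the STAT site TTCNNNGAA were not marked. The windows of PMEPA1 were searched too and are not shown. Each holds 1 SMAD box or none, and no AP-1 site or palindromic element.
IL11: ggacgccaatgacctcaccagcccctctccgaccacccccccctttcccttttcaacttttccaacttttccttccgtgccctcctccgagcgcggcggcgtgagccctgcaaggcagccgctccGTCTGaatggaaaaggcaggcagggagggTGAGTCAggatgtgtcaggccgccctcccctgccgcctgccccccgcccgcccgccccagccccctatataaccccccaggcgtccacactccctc
MMP7: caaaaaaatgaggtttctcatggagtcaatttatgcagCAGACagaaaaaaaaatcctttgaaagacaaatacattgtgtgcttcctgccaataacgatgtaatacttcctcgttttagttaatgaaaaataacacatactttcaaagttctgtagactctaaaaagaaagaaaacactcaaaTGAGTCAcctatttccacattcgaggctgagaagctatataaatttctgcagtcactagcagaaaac
R3HDML: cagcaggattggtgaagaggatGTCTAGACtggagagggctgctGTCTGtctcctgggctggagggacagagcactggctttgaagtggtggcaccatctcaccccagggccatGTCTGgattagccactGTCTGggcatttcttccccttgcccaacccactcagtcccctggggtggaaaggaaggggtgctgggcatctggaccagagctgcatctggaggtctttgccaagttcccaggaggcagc

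A promoter was found for 59 of the 88 genes that were higher and for 14 of the 16 that were lower. Both strands were searched, and a match is only a run of letters. A gene with several promoter windows counts as holding a motif if any of them does. The SMAD box was in 30 of the 59 (50.8%) and 8 of the 14 (57.1%), and in 42.8% of all 27305 genes. GTCTAGAC was in 2 of the 59 (3.39%), R3HDML among them, and in 0.231% of all. The AP-1 site was in 11 of the 59 (18.6%), in none of the 14 and in 8.06% of all. The STAT site TTCNNNGAA was in 5 of the 59 (8.47%), in none of the 14 and in 8.09% of all.

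Several of the largest rises were in genes at low counts. The largest was at a locus without a name (adjusted p = 0.0355), and another such locus was higher by 2.89 (adjusted p = 0.000459). First among the genes with a symbol, COL10A1, the collagen of hypertrophic cartilage on chromosome 6 (116118909 to 116217144), had 0 to 6 counts in the IL-6 libraries and 4 to 197 under TGF-β, a log2 fold change of 4.20 (SE 0.63, adjusted p = 0.0373). In batch 1 the difference was only 0.06, and in batches 2 to 6 it was 3.11 to 5.59. The call was kept only when batch 1 was left out (adjusted p = 0.00297) and reached an adjusted p of 0.164 without batch 4. Its span overlaps that of NT5DC1, and without knowing the strand of a read the counts of these neighbours cannot be told apart where they overlap. ODAM and AMTN, a pair of secreted proteins of the enamel organ with genes on chromosome 4, were higher by 2.33 (SE 0.27, adjusted p = 0.00900) and 1.63 (SE 0.16, adjusted p = 0.0120). ODAM had 0 to 32 counts under IL-6 and 6 to 154 under TGF-β, and AMTN 248 to 1791 and 1314 to 4674. R3HDML had 30 to 184 counts under IL-6 and 158 to 430 under TGF-β, a log2 fold change of 1.69 (SE 0.20, adjusted p = 0.00900). AMTN and R3HDML passed whichever batch was left out, while ODAM had an adjusted p of 0.0538 without batch 4.

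Other genes with large rises had more varied roles. TNFAIP6, which encodes a hyaluronan-binding protein, was higher by 1.69 (SE 0.27, adjusted p = 0.0351) and PTGS2, the inducible cyclooxygenase, by 1.31 (SE 0.17, adjusted p = 0.0165). TNFSF10, the death ligand TRAIL, ran from 5.14 through 8.78 to 9.51 under IL-6 and from 7.25 through 10.06 to 10.87 under TGF-β, with within-batch differences of 0.95 to 2.10 and a log2 fold change of 1.43 (SE 0.13, adjusted p = 0.00362). The adhesion receptor gene ADGRF4 had 6 to 30 and 10 to 167 counts, and its log2 fold change was 1.87 (SE 0.31, adjusted p = 0.0423). TNFSF10 passed whichever batch was left out. PTGS2 had an adjusted p of 0.0713 without batch 2. TNFAIP6 passed only without batch 1 (adjusted p = 0.0138, up to 0.155 without batch 4), and ADGRF4 in none of the 6 fits that left out a batch (0.0524 to 0.146). Among 29 chemokine and inflammatory cytokine genes tested, TNFSF10 was the one that rose, none fell, and the median log2 fold change was -0.04.

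Matrix-degrading enzymes and their regulators held more risers than any other list. Of 38 genes for matrix proteases and the plasminogen system, 9 rose and none fell, beside 88 and 16 of all 26024 symbols. The 9 include ADAM12 and ADAM19, which are counted among the SMAD targets too. The median log2 fold change was 0.34. In 15 of the 38 the TGF-β library was higher in 6 of 6 batches, as in 1033 of 26024 symbols overall. MMP7 on chromosome 11 (102520508 to 102530747), a small secreted protease, ran from 2.76 through 3.82 to 7.27 under IL-6 and from 4.65 through 6.08 to 9.54 under TGF-β, with the highest value of both groups in batch 1, and differed by 2.28 (SE 0.30, adjusted p = 0.0188). ADAMTS14, which trims procollagen, was higher by 1.34 (SE 0.15, adjusted p = 0.00858) and the gelatinase genes MMP9 and MMP2 by 1.30 (SE 0.20, adjusted p = 0.0315) and 0.63 (SE 0.060, adjusted p = 0.00362). MMP14, the membrane-bound activator of MMP2, rose by 0.42 (SE 0.065, adjusted p = 0.0317). PLAUR, the urokinase receptor, rose by 0.49 (SE 0.078, adjusted p = 0.0385), and SERPINE2, a serpin that inhibits plasminogen activators and thrombin, by 0.58 (SE 0.053, adjusted p = 0.00292). Of the 9, SERPINE2, MMP2 and ADAMTS14 passed whichever batch was left out. MMP7 did not pass without batch 4 or 6 (adjusted p of up to 0.0981), MMP9 passed only without batch 1 (up to 0.122 without batch 4), and MMP14 and PLAUR did not pass without batch 2, 3, 4 or 6 (up to 0.143 each).

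Integrin genes and a few structural genes of the matrix rose beside them. Of 19 integrin genes, 3 rose and none fell (88 and 16 of 26024 symbols), with a median of 0.17. ITGB6 on chromosome 2 (160099671 to 160200272), whose product in the αvβ6 integrin releases active TGF-β from its latent complex, ran from 7.92 through 9.61 to 10.80 under IL-6 and from 8.62 through 10.45 to 11.82 under TGF-β, a log2 fold change of 0.82 (SE 0.068, adjusted p = 0.00176). The collagen-binding subunit genes ITGA11 and ITGA2 were higher by 0.94 (SE 0.089, adjusted p = 0.00362) and 0.82 (SE 0.13, adjusted p = 0.0315). ITGB6 and ITGA11 passed whichever batch was left out, and ITGA2 only without batch 1 or 6 (adjusted p of up to 0.138 without batch 4). Of 43 collagen genes 2 rose and none fell (median 0.12), COL10A1 and COL1A1. COL1A1, the main fibrillar collagen of scars and bone, was higher by 0.64 (SE 0.10, adjusted p = 0.0405), with 0.14 in batch 5 and 0.62 to 1.00 in the others. It did not pass without batch 2, 3, 4 or 6 (up to 0.144).

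Of 54 genes for matrix glycoproteins, microfibrils and cross-linking enzymes, 2 rose and none fell, beside 88 and 16 of 26024 symbols. The median was 0.18. HAS2, a hyaluronan synthase, was higher by 1.08 (SE 0.16, adjusted p = 0.0287) and LOX, which cross-links collagen and elastin, by 0.66 (SE 0.099, adjusted p = 0.0315). Neither passed without batch 2, 3 or 4 (up to 0.130 for HAS2 and 0.144 for LOX). The spans of LOX and FN1 overlap those of SRFBP1 and ATIC. FN1, the fibronectin gene, differed by 1.12 to 1.70 in 5 batches and by 0.11 in batch 5, and did not pass (log2 fold change 1.28, SE 0.21, adjusted p = 0.0608). Without batch 5 its log2 fold change was 1.52 and its adjusted p 0.00131. LTBP2, a microfibril protein counted with the SMAD targets, was also short of the threshold at 0.84 (SE 0.13, adjusted p = 0.0523), and passed without batch 6 (adjusted p = 0.0420). LTBP4, which stores latent TGF-β in the matrix and is not on the list, rose by 0.33 (SE 0.054, adjusted p = 0.0393), but not without batch 2, 3, 4 or 6 (up to 0.137).

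The summed counts of 24 fibroblast and mesenchymal markers, all of them detected, ran from 7001 to 16052 CPM in the TGF-β libraries and from 5739 to 11271 in the IL-6 libraries, and were higher under TGF-β in 5 of 6 batches. Of these markers COL1A1 rose, none fell, and the median log2 fold change was 0.08, with PDGFRA at 0.06 (SE 0.12, adjusted p = 0.919). The part of these cells in the matrix and integrin results was not tested. In whole cultures, more cells of a type and more RNA per cell cannot be told apart.

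Contractile genes, which TGF-β raises in fibroblasts and smooth muscle, gave no passing gene. Of 24 smooth-muscle and myofibroblast contractile genes none passed in either direction, which is near the share of all genes (0.319% higher and 0.058% lower). Among them 6 had an unadjusted p under 0.05 with lower values and 2 with higher values (1667 and 1450 of 26024 symbols). Their median log2 fold change was -0.10. TNS1, which links actin to integrins, had the highest value, 0.36 (SE 0.063, adjusted p = 0.0529), and was higher in 6 of 6 batches. ACTA2, the smooth-muscle actin, had a log2 fold change of -0.37 (SE 0.15, adjusted p = 0.388) and TAGLN, an actin-binding protein, one of -0.22 (SE 0.12, adjusted p = 0.536). ACTA2 was lower under TGF-β in 5 of 6 batches and higher in batch 1, by 0.38. Without batch 1 its log2 fold change was -0.52 (adjusted p = 0.0431). ACTA2 shares part of its span with FAS, and TAGLN with PCSK7.

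**Figure D3:**
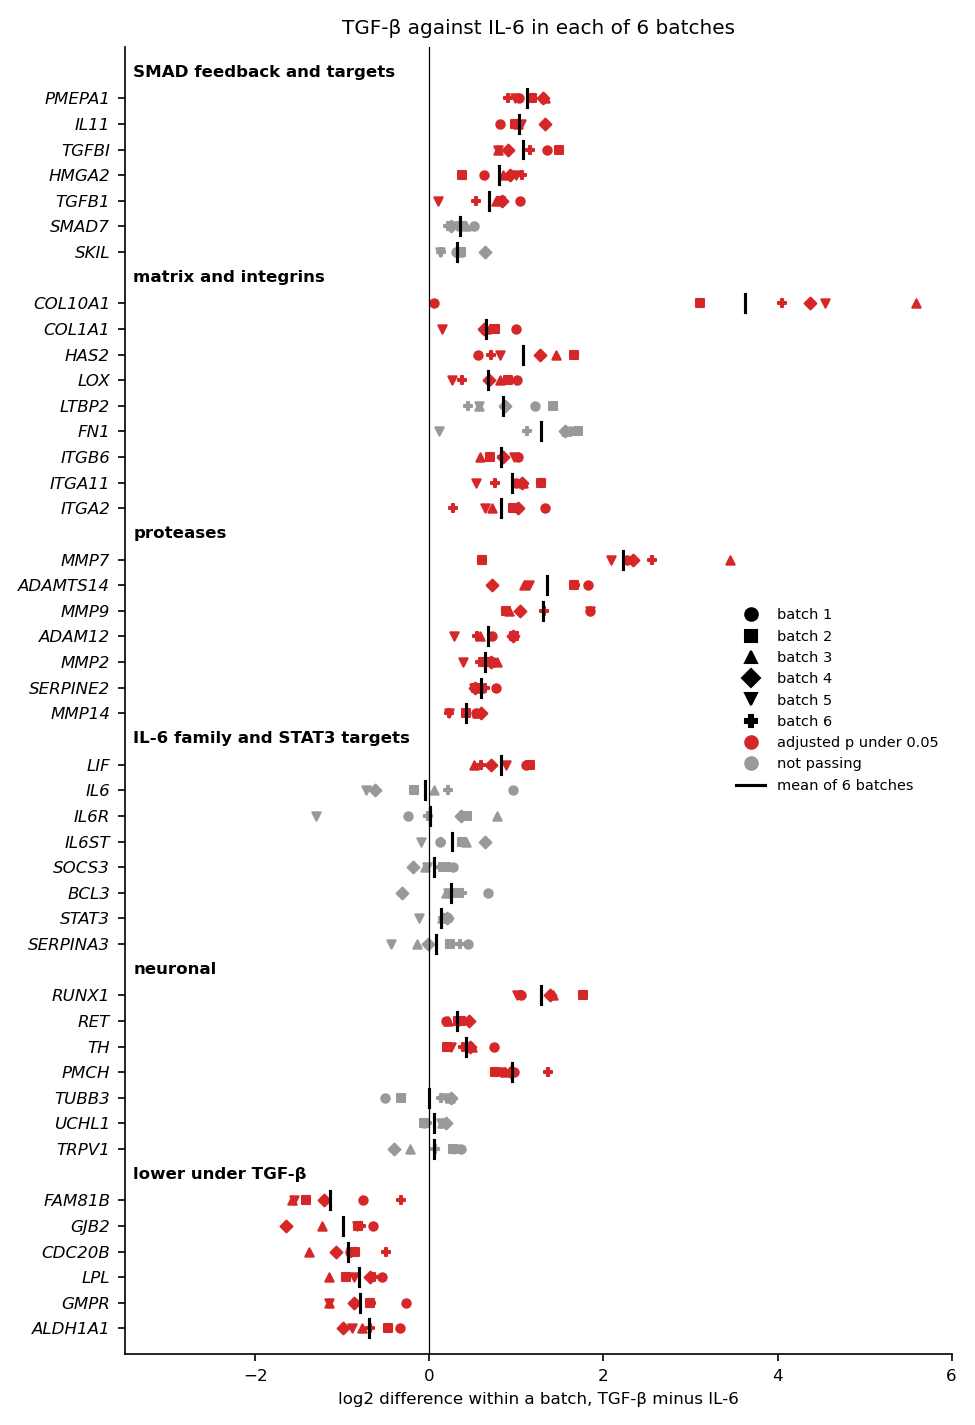
Difference in log2(normalized count + 1) between the TGF-β and the IL-6 library of each batch (horizontal axis) for named genes in 6 groups, 1 marker shape per batch, with a black bar at the mean. Genes that passed an adjusted p of 0.05 are red, and their 6 points lie on 1 side of 0.

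Few components of the TGF-β and BMP pathways passed. Of 28 TGF-β and activin ligand, receptor and activator genes, TGFB1 and ITGB6 rose and none fell, beside 88 and 16 of 26024 symbols. The median was 0.02. The receptor genes TGFBR1 and TGFBR2 had log2 fold changes of 0.03 (SE 0.070, adjusted p = 0.922) and -0.33 (SE 0.12, adjusted p = 0.329). None of 26 BMP and ID genes passed in either direction (median -0.05). Among them ID1 and ID3, which BMP receptors switch on through SMAD1 and SMAD5, stood at -0.22 (SE 0.095, adjusted p = 0.405) and -0.06 (SE 0.25, adjusted p = 0.965). ID2, another of these, was lower in 6 of 6 batches, with a log2 fold change of -0.34 (SE 0.079, adjusted p = 0.112).

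Genes that IL-6 alone raises would be lower under TGF-β in this comparison. A gene that both cytokines raise need not be, so the comparison cannot show whether IL-6 acted on it. Of 32 IL-6 and STAT3 target genes tested, none was lower at the threshold, where 0.058% of all genes were, and 1 was higher (TNFAIP6, above). At an unadjusted p under 0.05, 5 were higher and 4 lower (1450 and 1667 of 26024 symbols), and the median log2 fold change was 0.03. The member with the lowest fitted value, HP (haptoglobin), had a mean of only 1.42 counts, so no fold is given. SOCS3, the feedback inhibitor of the IL-6 receptor, ran from 10.97 through 11.34 to 12.08 under IL-6 and from 10.78 through 11.44 to 12.36 under TGF-β. The groups overlapped almost wholly, with a log2 fold change of 0.05 (SE 0.069, adjusted p = 0.879). BCL3 and STAT3 stood at 0.23 (SE 0.14, adjusted p = 0.601) and 0.12 (SE 0.059, adjusted p = 0.466), SERPINA3, an acute-phase protease inhibitor, at 0.06 (SE 0.12, adjusted p = 0.904) and CISH, an inhibitor of STAT5, at -0.01 (SE 0.21, adjusted p = 0.998). FGG, a fibrinogen chain induced by IL-6 in liver, had 0 to 37 counts under IL-6 and 0 to 19 under TGF-β, lower in 3 batches and higher in none (log2 fold change -2.42, SE 1.29, adjusted p = 0.570). In the fit of IL-6 and vehicle libraries alone, the SOCS3 difference was 0.09 (SE 0.091, adjusted p = 0.974) with all batches and 0.03 without batch 2.

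The IL-6 family and its receptors showed a pair of risers and no faller among 21 genes (median -4.55e-05), beside 88 and 16 of 26024 symbols. LIF, like IL11 a cytokine that signals through IL6ST, was higher under TGF-β by 0.82 (SE 0.093, adjusted p = 0.00858), from 9.52 through 10.95 to 12.25 under IL-6 and from 10.68 through 11.57 to 13.37 under TGF-β. IL11 and LIF passed whichever batch was left out. IL6 itself was at 14 to 276 counts under TGF-β and 15 to 151 under IL-6, with a log2 fold change of -0.05 (SE 0.24, adjusted p = 0.972). IL6R had 53 to 353 counts under TGF-β and 37 to 235 under IL-6, so transcripts of the receptor were present at a low level (log2 fold change -4.55e-05, SE 0.46, adjusted p = 1.00). IL6ST was at 0.26 (SE 0.086, adjusted p = 0.272).

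**Figure D4:**
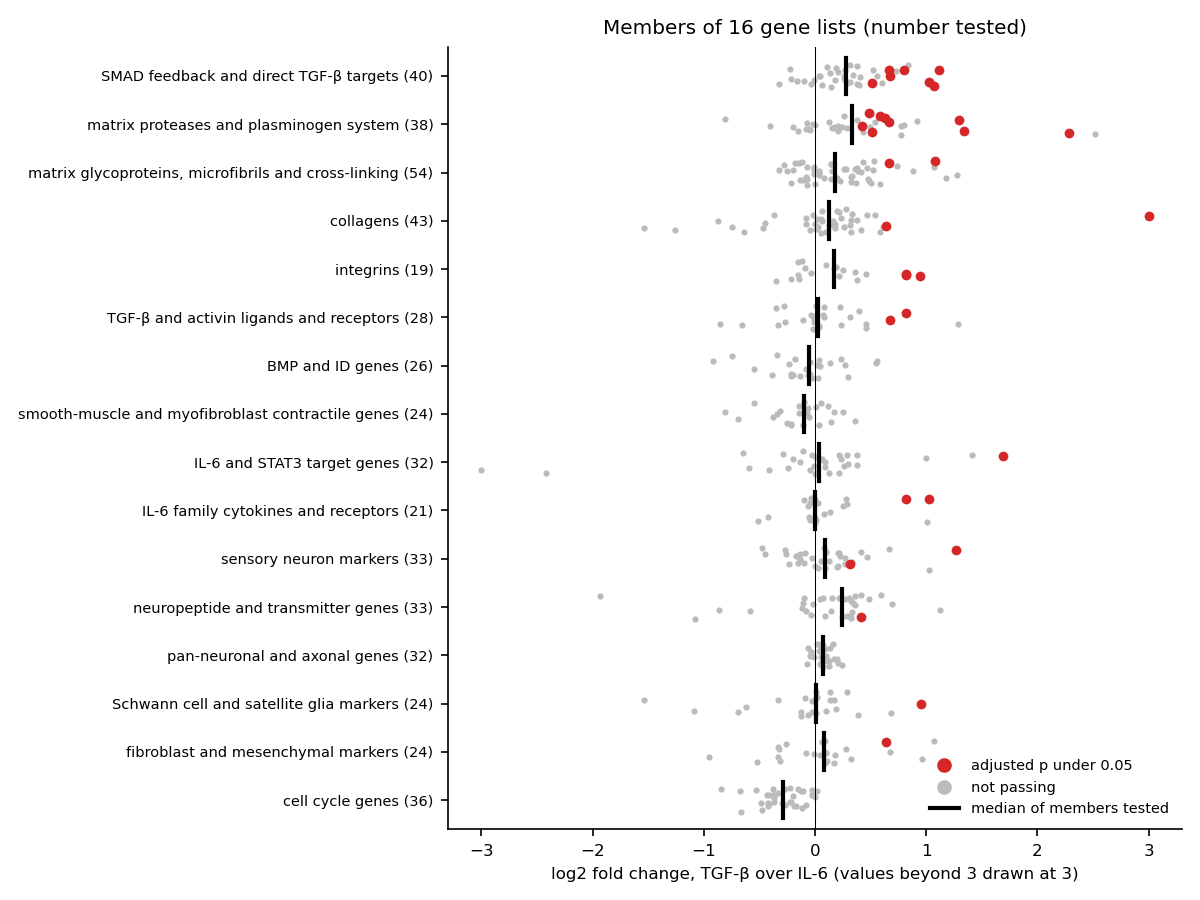
Log2 fold change of TGF-β over IL-6 for the members of 16 gene lists, with the number tested in parentheses, red points for members that passed an adjusted p of 0.05 and a black bar at the median. The 2 members beyond 3 in size are drawn at the limit. Medians are highest for the protease list (0.34) and the SMAD list (0.28), and every red point lies above 0.

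Neuronal identity genes moved little, and those that rose were few. None of 32 pan-neuronal and axonal genes passed in either direction (median 0.07, range -0.07 to 0.24), with TUBB3 at -0.01 (SE 0.11, adjusted p = 0.986) and UCHL1 at 0.05 (SE 0.057, adjusted p = 0.837). Of 33 sensory neuron markers 2 rose and none fell (median 0.09), beside 88 and 16 of 26024 symbols. RUNX1 on chromosome 21 (34787801 to 35049302), a transcription factor of nociceptors that many other cells also express, ran from 7.19 through 8.61 to 9.33 under IL-6 and from 8.64 through 9.82 to 10.39 under TGF-β, with within-batch differences of 1.01 to 1.76 and a log2 fold change of 1.27 (SE 0.10, adjusted p = 0.00176). It passed whichever batch was left out. RET, the receptor of the GDNF family, was higher by 0.31 (SE 0.052, adjusted p = 0.0405), and passed only without batch 1 (up to 0.144 without batch 4). TRPV1 stood at 0.05 (SE 0.12, adjusted p = 0.938). TRPV1 shares part of its span with SHPK.

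Of 33 neuropeptide and transmitter genes 1 rose and none fell, though their median of 0.24 lay above that of all genes. The riser was TH, tyrosine hydroxylase of catecholamine synthesis, at 0.41 (SE 0.069, adjusted p = 0.0425), which passed only without batch 1 (up to 0.157 without batch 4). TAC1, the substance P precursor, was at 0.09 (SE 0.28, adjusted p = 0.958). Outside the list, PMCH, the precursor of melanin-concentrating hormone, was higher by 0.96 (SE 0.092, adjusted p = 0.00362), with 0.75 to 1.37 within batches. PMCH lies within PARPBP, so its reads cannot be told apart from those of that gene. The genes for the prohormone convertase PCSK2 and the synaptic vesicle protein SV2B were higher by 0.41 (SE 0.060, adjusted p = 0.0287) and 0.45 (SE 0.072, adjusted p = 0.0385), but not without batch 2, 3, 4 or 6 (up to 0.122 and 0.138).

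Axon guidance and signalling genes gave small rises over IL-6. Of 51 axon growth and injury genes 3 rose and none fell (median 0.01), beside 88 and 16 of 26024 symbols. The kinase gene STK38L was at 0.36 (SE 0.052, adjusted p = 0.0287), the semaphorin receptor gene PLXNA4 at 0.45 (SE 0.069, adjusted p = 0.0315) and MYO10, a myosin of filopodia, at 0.34 (SE 0.056, adjusted p = 0.0405). STK38L did not pass without batch 2, 4 or 6 (up to 0.101), MYO10 not without batch 2, 3, 4 or 6 (up to 0.163), and PLXNA4 only without batch 1 (up to 0.142 without batch 3). PLXND1, another semaphorin receptor, and SORCS2, a coreceptor of proneurotrophins, had small but even differences, 0.41 (SE 0.043, adjusted p = 0.00534) with 0.37 to 0.48 within batches, and 0.40 (SE 0.042, adjusted p = 0.00515) with 0.38 to 0.43. Both passed whichever batch was left out. SORCS2 shares part of its span with PSAPL1. None of the 62 potassium channel genes on the list passed, though 17 had an unadjusted p under 0.05 with higher values and 2 with lower values (1450 and 1667 of 26024 symbols), and their median was 0.10. KCNF1, a potassium channel subunit gene outside the list and chosen after its values were seen, was lower, with a log2 fold change of -0.67 (SE 0.11, adjusted p = 0.0373, up to 0.138 with a batch left out). Of 36 calcium channel and calcium store genes ITPR3, an inositol trisphosphate receptor, rose by 0.52 (SE 0.080, adjusted p = 0.0315) and passed only without batch 1 (up to 0.111 without batch 3).

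Schwann cell and satellite glia markers differed little as a list. Of 24 tested, 1 rose and none fell, and their median log2 fold change was 0.01. Their summed counts ran from 801 to 2897 CPM under TGF-β and from 949 to 2583 under IL-6.

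Genes lower under TGF-β were fewer, with a median log2 fold change of -0.69 for the 16 that passed, beside 0.67 for the 88 that were higher. LPL, the lipoprotein lipase gene on chromosome 8 (19939253 to 19967259), ran from 9.51 through 9.90 to 10.09 under IL-6 and from 8.86 through 8.95 to 9.38 under TGF-β. The groups did not overlap, and its log2 fold change was -0.82 (SE 0.089, adjusted p = 0.00666), in every fit that left out a batch too. Among 20887 genes with a mean count of at least 10, the groups did not overlap for 14. FAM81B was the one gene that passed edgeR's test with a fall of over 2-fold. It had 70 to 1186 counts under IL-6 and 25 to 668 under TGF-β (log2 fold change -1.10, SE 0.18, adjusted p = 0.0406). With a batch left out it passed only without batch 1 or 6 (up to 0.167 without batch 4). GJB2, the connexin 26 gene, was lower by a log2 fold change of -0.999 (SE 0.16, adjusted p = 0.0317), CDC20B by one of -0.93 (SE 0.12, adjusted p = 0.0176), GMPR, a purine enzyme, by -0.81 (SE 0.12, adjusted p = 0.0314) and ALDH1A1, which makes retinoic acid, by -0.71 (SE 0.12, adjusted p = 0.0406). GJB2, GMPR and ALDH1A1 passed only without batch 1 (up to 0.122, 0.130 and 0.155), and CDC20B not without batch 2 or 4 (up to 0.0821). CDC20B overlaps GPX8.

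Cell cycle genes leaned the same way without passing. None of 36 passed, 10 had an unadjusted p under 0.05 with lower values and none with higher values, and their median was -0.29. Over all 26024 symbols, 1667 were lower and 1450 higher at that p. BUB1B, a mitotic checkpoint kinase, stood at -0.84 (SE 0.19, adjusted p = 0.121). Of 31 interferon-stimulated genes none passed, 8 had an unadjusted p under 0.05 with lower values and 1 with a higher value, and the median was -0.16. Nor did any gene pass among 51 WNT genes (0.03), 17 IGF genes (0.18), 14 hedgehog genes (-0.01), 32 genes of the endoplasmic reticulum stress response (0.06), 26 of cholesterol and fatty acid synthesis (-0.04), 23 of glycolysis and hypoxia (-0.09) and 13 encoded in mitochondria (0.03). The markers of other cell types were without passing genes too, with medians of -0.29 for 19 muscle, -0.04 for 20 epithelial and endothelial, -0.21 for 12 melanocyte and pluripotency and -0.11 for 17 central nervous system genes.

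Values against vehicle show on which side each group lay. In the fit of all 24 libraries, the differences from vehicle were 1.07 under TGF-β and 0.04 under IL-6 for IL11, 2.43 and 0.08 for MMP7, 1.66 and -0.02 for R3HDML, and -0.67 and 0.15 for LPL. These contrasts share libraries with the main one and are given as values only. For RTL1, TH, TNFSF10 and RET the fitted difference of IL-6 from vehicle was negative but did not pass. In fits of 12 libraries, edgeR's test gave an adjusted p of 0.974 for each, with SE of 0.37, 0.28, 0.55 and 0.33. The IL-6 library was above vehicle in 2, 2, 3 and 2 of 6 batches. In the fits of 12 libraries each, RTL1, an imprinted gene derived from a retrotransposon, had a difference of -0.63 under IL-6 and 0.02 under TGF-β, TH one of -0.34 and 0.09, TNFSF10 one of -0.62 and 0.76, and RET one of -0.40 and -0.09. The same fits without batch 2 gave -0.27 and 0.38 for RTL1, -0.06 and 0.38 for TH, -0.14 and 1.18 for TNFSF10, and -0.04 and 0.26 for RET. PCSK2, SV2B and PLXNA4 were alike, at -0.52, -0.44 and -0.39 under IL-6 with all batches and -0.10, 0.01 and 0.05 under TGF-β. Without batch 2 they were at -0.17, -0.07 and -0.06 under IL-6 and 0.26, 0.37 and 0.36 under TGF-β. None of these differences passed.

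The comparisons with vehicle had more spread between libraries. With 12 libraries each and the same model, 104 genes passed for TGF-β against IL-6, 0 for TGF-β against vehicle and 0 for IL-6 against vehicle by edgeR's test. The counts at an unadjusted p under 0.05 were 3217, 1491 and 495, and DESeq2 passed 879, 301 and 12 genes. The biological coefficient of variation, the spread between libraries that the batch and the treatment leave, was 0.187, 0.274 and 0.261. Without batch 2, whose vehicle library did not resemble its batch, the last pair fell to 0.205 and 0.185, and 16 genes passed for TGF-β against vehicle, 8 in each direction, while 0 passed for IL-6 against vehicle (541 at an unadjusted p under 0.05). The TGF-β against IL-6 fit then had 34 passing genes and a coefficient of 0.193, with 1 batch fewer. Without batch 4 the coefficients against vehicle were 0.247 for TGF-β and 0.262 for IL-6, and 0 genes passed in either fit.

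**Figure D5:**
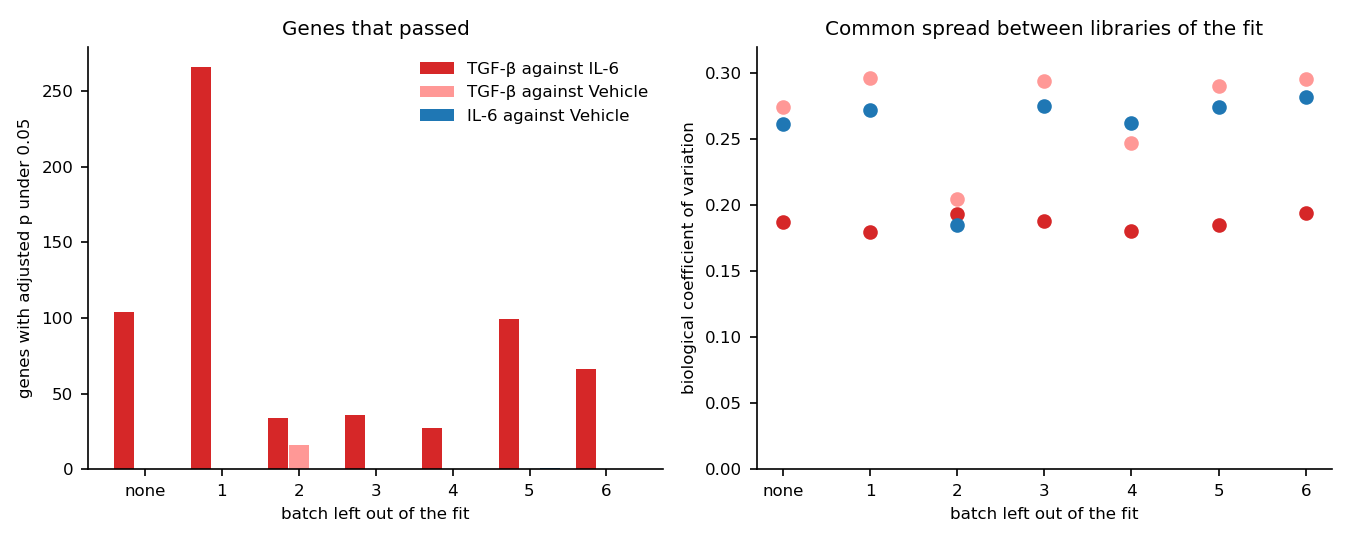
Left, genes with an adjusted p under 0.05 in the fits of TGF-β against IL-6, TGF-β against vehicle and IL-6 against vehicle, with no batch or 1 batch left out (horizontal axis). Right, the common biological coefficient of variation of the same fits, which for both comparisons with vehicle is lowest without batch 2 (0.205 and 0.185).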

How the data were processed

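Raw counts per gene were deposited for 24 libraries. The authors had the libraries made from mRNA and sequenced by a provider, which trimmed adapters with Trimmomatic (0.30) and aligned the reads to GRCh38.p14. The labels call this build a mouse reference, but it is a human one, and the table lists human genes. How reads were aligned and counted, and whether by strand, is not given in the sources used here, and no normalization had been applied to the deposited counts. The table holds 36468 entries, of which 13161 are unnamed NewGene loci and 4886 share a symbol with another entry. Lists used, for such a symbol, the entry with the highest mean count.

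TGF-β (6) and IL-6 (6) libraries were compared with edgeR 4.0.16 in R 4.3.3 by the robust quasi-likelihood test after TMM normalization. The model held treatment and batch, and p-values were adjusted by the Benjamini-Hochberg method across the whole table. A gene entered with a total count of at least 10. Passing means an adjusted p under 0.05. Each fold change is log2, TGF-β over IL-6, and its SE was derived from it and the F statistic. Genes said to rise or fall passed with higher or lower values under TGF-β than under IL-6, not than under vehicle. CPM values are counts per library total, computed here. Fits of all 24 libraries, of 12 libraries with vehicle, and DESeq2 1.42.0 stood beside it. Levels are counts over DESeq2's size factors, as log2 after adding 1. The batch numbers paired the libraries, as the labels give them as batches. Every within-batch correlation between TGF-β and IL-6 libraries was over 0.1. With the vehicle library of batch 2 it was -0.0072 for TGF-β and 0.00055 for IL-6. The labels do not say whether the 6 batches were independent in other ways, so p-values measure the spread between these batches.

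Members and gene lists were chosen with earlier results of these data known, so list counts and medians carry no test. Named genes were the called genes that rose or fell most, at most 12 each way (mean count of at least 10, same direction in 6 batches, a symbol with 1 entry, no NewGene or readthrough locus), a panel of 32 pathway and marker genes, and, per list, up to 4 passing members with the smallest p or, with none passing, 2 members. LPL, CDC20B, GMPR, GJB2, ALDH1A1, PMCH, RTL1, PLXND1, SORCS2, KCNF1, HP, MMP14, PLAUR, ADAM12, ADAM19, PCSK2, SV2B and LTBP4 were chosen after their values were seen. Motifs were searched in RefSeq promoters of GRCh38.p14. The fits were tested on simulated data. Alternatives were other filters, normalizations, DESeq2, all 24 libraries, no batch term, the first entry of each symbol and each batch left out. The fits of pairs of groups with vehicle were added after seeing the data. A few genes named by these rules are left out of the text but were kept in every fit and count.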

Additional observations from a re-analysis of the deposited data

Results flagged for a closer look

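The within-batch log2 differences of 117 named genes, TGF-β minus IL-6, were searched for a batch far from the other 5, which chance gives in about 1 of 20 genes. In 5 genes 1 batch stood apart. FN1, fibronectin, differed by 0.111 in batch 5, against 1.12 to 1.70 in the other batches. STAT3 was at -0.121 in batch 5, where the others lay between 0.150 and 0.218. In batch 1, ITPR3 reached 0.923 (others 0.433 to 0.488) and RTL1 reached 1.07 (others 0.472 to 0.669). PMCH was at 1.37 in batch 6, with 0.750 to 0.972 elsewhere. The part of batch composition in these values was not tested.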

How the results depend on the processing

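No log2 fold change of the 104 passing genes changed sign under any alternative that tested it, and no alternative moved the median of all genes by over 0.0112. The counts moved more. Genes called (29 in all, 28 higher and 1 lower) numbered 104 (51 and 53) with DESeq2, 9 (8 higher) with all 24 libraries in the fit, and 3 lower without a filter or with filterByExpr, 2 lower with DESeq2's size factors or upper-quartile normalization and 4 lower with the first entry of each symbol. Genes passing (104 in all, 88 higher and 16 lower) numbered 879 (496 and 383) with DESeq2, 23 (12 higher) with all 24 libraries and 200 (164 and 36) with the first entry of each symbol. Of the 104, 102 passed with DESeq2 and 15 with all 24 libraries. Leaving out 1 batch gave 12 to 52 called genes, 12 to 33 higher and 0 to 19 lower, and 27 to 266 passing genes, 26 to 170 higher and 1 to 96 lower. Without the replicate block, the pairing by batch, 0 genes were called and 0 passed, in either direction. The cause of these shifts was not tested. Depth limits low genes such as COL10A1 and FGG, with under 10 counts in some libraries.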
